A study of Mus musculus with 12 samples.

Results

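Dazl, Ddx4, Dnd1, Nanos2, Nanos3 and Lin28a encode 6 RNA-binding proteins that govern how germ cells use their mRNAs. They were chosen by name, with earlier results of these data known. They are 6 of the 26218 gene rows in a table of 12 mouse germ cell libraries. Of the 6 genes, 5 reached at least 5 RPM (reads scaled to a fixed library size by the authors) in at least 2 libraries and were tested, while Nanos2 did not reach it. RNA was measured by 3′-end sequencing of amplified cDNA in 6 groups of 2 libraries.

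The cultured groups, d4c3, d4c5 and d4c7, were primordial germ cell-like cells (PGCLCs) of strain C57BL/6 carrying the Blimp1-mVenus and Stella-ECFP reporters. They were made from embryonic stem cells, sorted at day 4 of induction, expanded for 3, 5 or 7 days on m220 feeder cells and sorted again as BVSC+ cells, with 10 ng of RNA per library. The embryonic groups were female and male germ cells of E12.5 and primordial germ cells (PGCs) of E9.5 (E, embryonic day), from mice labelled as a 1:1 mix of ICR and C57BL/6. These carried the Stella-EGFP reporter, were sorted as SG+ cells and gave 1 ng of RNA per library. Every difference between culture and embryo therefore comes with a difference in strain, reporter, sort and RNA input, and these cannot be told apart from it. Whether the 2 libraries of a group are separate cultures or animals is not stated in the labels, and the p-values then reflect the spread of these libraries alone, which may be technical.

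Depth was estimated at 2219175 to 5817990 reads in genes per library, so a value of 0 allows up to 0.517 to 1.36 RPM, or 3 reads. These limits cover counting error only. All 8 germ cell marker genes were above 0 in every group, with summed levels between 2959 and 6050 RPM. Blood markers summed to 4047 and 4580 RPM in the E9.5 libraries, and none of the other 10 libraries was above 19.0 RPM. Endothelial markers summed to 59.3 to 154 RPM over the libraries. Most of this was Pecam1, at 48.3 to 151 RPM, and Tek was at 1.18 to 24.8 RPM. Kdr was at most 3.68 RPM, Emcn at most 5.88 RPM, and Cdh5 was at 0 in all 12 libraries. Gonadal somatic markers summed to at most 21.3 RPM and endoderm markers to at most 38.9 RPM. Stromal and feeder markers summed to 104 and 109 RPM at E9.5, to at most 87.3 RPM in a cultured library and to at most 4.21 RPM at E12.5. In sorted bulk samples, fewer cells that express a gene and less RNA of it per cell cannot be told apart.

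Germ cells rely heavily on control of mRNA after transcription. Dazl binds short uridine-rich motifs in untranslated regions and promotes translation; it is needed for PGCs to acquire the gonadal germ cell state in mice. Ddx4, the mouse Vasa homologue, is a DEAD-box RNA helicase of germ granules and the piRNA pathway. Dnd1 and the Nanos proteins act together on target mRNAs and recruit the CCR4-NOT deadenylase complex, with Nanos3 protecting early PGCs and Nanos2 acting in fetal male germ cells. Lin28a blocks maturation of let-7 microRNAs, which otherwise repress Blimp1 and other early germ cell mRNAs.

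DNA methylation in mammals falls on CG dinucleotides, and the promoters of Dazl and Ddx4 are known for it before germ cells reprogramme. Promoter windows from RefSeq (GRCm38.p6, the build of the deposited table) are shown for these 2 genes, which moved together, beside that of Nanos3, which did not move with them. Each window runs from 250 bases before to 50 bases after an annotated start and is written 5′ to 3′ on the gene's strand, with every CG in capitals. Windows were taken for 5 of the 6 genes, and Dnd1 was left out by plan. Dazl lies on chromosome 17 (minus strand, 50279393 to 50293620), and its window is chr17:50293571-50293870. Ddx4 lies on chromosome 13 (minus strand, 112598333 to 112652633), with the window chr13:112652261-112652560. The Ddx4 window lies wholly inside the gene span, so its start is internal, downstream of the 5′ end of the span. Nanos3 lies on chromosome 8 (minus strand, 84173733 to 84176552), with the window chr8:84176503-84176802.
Dazl: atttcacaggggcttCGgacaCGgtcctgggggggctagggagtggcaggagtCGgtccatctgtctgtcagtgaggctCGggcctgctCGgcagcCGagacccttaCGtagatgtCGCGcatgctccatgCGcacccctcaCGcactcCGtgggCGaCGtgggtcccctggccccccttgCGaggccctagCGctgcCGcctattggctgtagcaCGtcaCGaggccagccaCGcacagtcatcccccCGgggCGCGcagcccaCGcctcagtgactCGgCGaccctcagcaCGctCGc
Ddx4: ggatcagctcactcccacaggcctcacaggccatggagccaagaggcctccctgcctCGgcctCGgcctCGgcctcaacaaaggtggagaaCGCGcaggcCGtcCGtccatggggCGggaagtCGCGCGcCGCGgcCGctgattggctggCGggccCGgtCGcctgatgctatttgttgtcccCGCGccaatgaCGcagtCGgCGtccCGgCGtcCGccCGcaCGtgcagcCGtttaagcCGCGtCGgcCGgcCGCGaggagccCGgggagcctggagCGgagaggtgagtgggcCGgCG
Nanos3: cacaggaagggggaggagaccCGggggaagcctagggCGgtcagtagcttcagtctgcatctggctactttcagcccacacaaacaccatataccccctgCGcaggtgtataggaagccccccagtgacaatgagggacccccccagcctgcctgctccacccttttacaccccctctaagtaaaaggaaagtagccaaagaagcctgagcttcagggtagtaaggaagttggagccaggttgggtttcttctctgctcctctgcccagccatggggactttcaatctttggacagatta

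The Dazl window held 28 CG dinucleotides and the Ddx4 window held 38. Among 32851 RefSeq promoter windows of the same length the median was 7, and 85.8% had fewer than Dazl and 95.05% fewer than Ddx4. The window of Lin28a (chr4:134018767-134019066, minus strand) held 10 and that of Nanos3 held 3, with 56.5% and 23.3% of windows having fewer. Like that of Ddx4, the Lin28a window lies wholly inside its gene span, with an internal start. The window of Nanos2 (chr7:18987274-18987573, plus strand) held none, as did 5.43% of all windows. Short motifs of 2 kinds were searched on both strands: CACGTG, an E-box, and GCGGGAA, a form of the E2F motif; matches of the 2 did not overlap each other. Of the 5 windows, Ddx4 alone held either, with CACGTG beginning 29 bases and GCGGGAA 136 bases before the internal start of its window. CACGTG was in 7.15% of all windows, GCGGGAA in 4.60% and both in 0.457%. A match describes letters in a window and not a bound site, and methylation was not measured in these libraries.

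**Figure D1:**
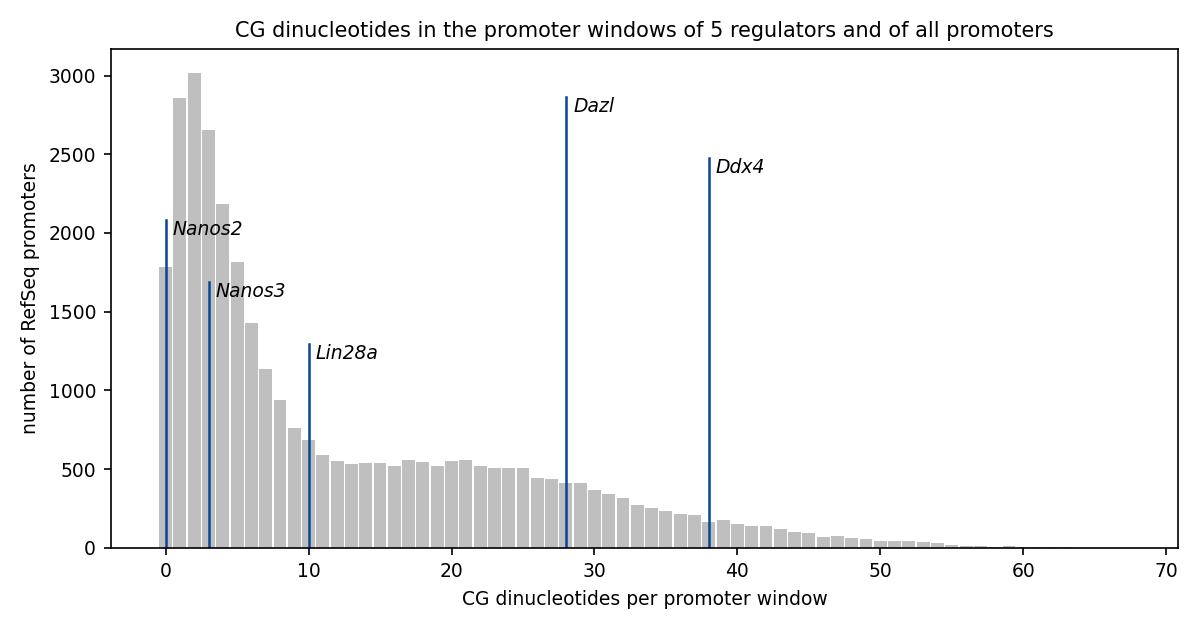
Number of RefSeq promoter windows (vertical axis) by their number of CG dinucleotides (horizontal axis). Blue lines mark the windows of 5 of the genes, and their heights carry no value. Dazl with 28 and Ddx4 with 38 stand in the upper range, and Nanos2 with 0, Nanos3 with 3 and Lin28a with 10 nearer to the median of 7.

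The first question was how the regulators moved while PGCLCs were expanded. Dazl, the translational activator, and Ddx4, the helicase, were higher at d4c7 than at d4c3, and Dnd1, the partner of Nanos proteins, was lower. Nanos3 and Lin28a did not pass the test. Changes were tested with limma on log2(RPM + 1) over all tested genes, and a gene was called when its Benjamini-Hochberg adjusted p was under 0.05. Fold changes are on this log2(RPM + 1) scale, which understates changes of low genes. Of the 5 tested regulators, 3 were called between d4c7 and d4c3, against 2.75% of all 10856 tested genes. As the genes were chosen with earlier results of these data known, such shares describe them and are no independent evidence.

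Dazl was at 32.5 and 31.1 RPM in d4c3, 376 and 171 RPM in d4c5, and 505 and 296 RPM in d4c7. The d4c3 libraries were close to each other and lay below every later culture library, while the ranges of d4c5 and d4c7 overlapped. Between d4c7 and d4c3 the log2 change of Dazl was 3.56 ± 0.29 (SE; limma adjusted p = 3.15e-05), an 11.8-fold higher level. Each SE draws on the spread within all 6 groups. Replicates differed most in d4c7 and d4c5, with root mean square log2 differences of 0.564 and 0.486 over all tested genes. The other groups had 0.329 to 0.417, so the SE of a change in culture may understate the spread there. Most of it lay before d4c5: Dazl changed by 2.96 ± 0.29 between d4c5 and d4c3 (limma adjusted p = 0.000338) and by 0.61 ± 0.29 between d4c7 and d4c5 (limma adjusted p = 0.888). It was the 1 regulator called between d4c5 and d4c3, where 0.0829% of tested genes were called. With only the compared groups in the model, the adjusted p of Dazl was 0.671 between d4c5 and d4c3 and 0.0548 between d4c7 and d4c3, and without a filter on low values it was 0.0526 for d4c5 against d4c3.

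Ddx4 was at 50.5 and 42.7 RPM in d4c3, 119.7 and 72.3 RPM in d4c5, and 118 and 78.9 RPM in d4c7. Both later stages lay above both d4c3 libraries and overlapped each other. Its log2 change for d4c7 against d4c3 was 1.04 ± 0.21 (SE; limma adjusted p = 0.0200). This call was lost without d4c3 replicate 1 (adjusted p = 0.107), d4c3 replicate 2 (0.136) or d4c7 replicate 1 (0.0721), without the filter on low values (0.113) and with only the compared groups (0.309). Between d4c5 and d4c3 the change of Ddx4 was 0.99 ± 0.21 and missed the threshold (limma adjusted p = 0.117). It passed with the replicate number as a block (0.00154) and without d4c5 replicate 2 (0.0206).

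Dazl and Ddx4 did not keep a fixed proportion. The ratio of Dazl to Ddx4 RPM was 0.643 and 0.727 in d4c3, 3.14 and 2.36 in d4c5, and 4.27 and 3.76 in d4c7. It was 2.79 and 2.68 in E12.5 females, 2.74 and 2.76 in E12.5 males, and 0.430 and 0.354 at E9.5. RPM of the 2 genes were not calibrated against each other. The size of the ratio is therefore not read as relative amounts of the mRNAs, and only its movement between libraries is described. The d4c7 libraries had the highest ratios of the 12, and the d4c3 libraries lay between E9.5 and the later stages.

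Dnd1 lies on chromosome 18 (minus strand, 36763671 to 36766214). It was at 150.2 and 128 RPM in d4c3, 86.1 and 84.5 RPM in d4c5, and 49.1 and 62.9 RPM in d4c7. No culture stage overlapped another. The log2 change of Dnd1 between d4c7 and d4c3 was -1.30 ± 0.14 (SE; limma adjusted p = 0.000330), and the call held with each of the 4 libraries left out (adjusted p at most 0.0129) but had an adjusted p of 0.209 with only the compared groups. The single steps, at -0.69 for d4c5 against d4c3 and -0.61 for d4c7 against d4c5, missed the threshold (limma adjusted p = 0.0707 and 0.529). The first step passed with the replicate number as a block (0.0231) and with median ratio scaling (0.0475). Dnd1 overlaps Wdr55, a gene on the opposite strand, and the sources used here do not say whether reads were counted by strand. Wdr55 was at 38.9 and 44.6 RPM in d4c7, against 59.5 and 45.7 RPM in d4c3, so its own decrease in RPM was smaller than that of Dnd1.

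Between d4c7 and d4c5 none of the 5 tested regulators was called by limma, against 0.0184% of tested genes. At an unadjusted p under 0.05 that comparison had 610 of all tested genes, among them Dnd1. Every leave-one-out and other alternative also gave 0 called regulators there.

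Nanos3, which protects early PGCs from cell death, was low throughout and near the filter. It was at 8.997 and 11.1 RPM in d4c3, 8.18 and 9.04 RPM in d4c5, and 9.42 and 15.2 RPM in d4c7. Its log2 change between d4c7 and d4c3 was 0.24 with a 95% interval from -0.36 to 0.84 (limma adjusted p = 0.725). The interval admits changes in both directions, so a stable level was not shown. Nanos3 shares its strand and span with the microRNA genes Mir181c and Mir181d, which have rows of their own. How reads in the shared span were assigned is not given in the sources used here.

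Lin28a lies on chromosome 4 (minus strand, 134003330 to 134019196). Gm13061 overlaps it on the opposite strand, and reads of the pair cannot be told apart without strand. It was at 25.03 and 17.7 RPM in d4c3, 6.62 and 13.6 RPM in d4c5, and 6.28 and 15.2 RPM in d4c7. Both later stages lay below both d4c3 libraries, and the libraries within each later stage differed by over 2 times. For Lin28a the change between d4c7 and d4c3 was -1.03 ± 0.36 on the log2 scale (SE) and was not called (limma adjusted p = 0.164). It was called without d4c7 replicate 2, at -1.60 (adjusted p = 0.0109).

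Replicate libraries of the later culture stages differed in a patterned way. In d4c5 and d4c7 replicate 1 had more Dazl and Ddx4 than replicate 2, and replicate 2 had more Lin28a and Nanos3. Stromal and feeder markers summed to 87.3 RPM in d4c5 replicate 1 and 4.07 RPM in d4c5 replicate 2, and to 23.6 RPM in d4c7 replicate 1 and 6.03 RPM in d4c7 replicate 2. In the 2 d4c3 libraries they summed to 7.10 and 7.82 RPM. Their part in the changes of culture was not tested.

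**Figure D2:**
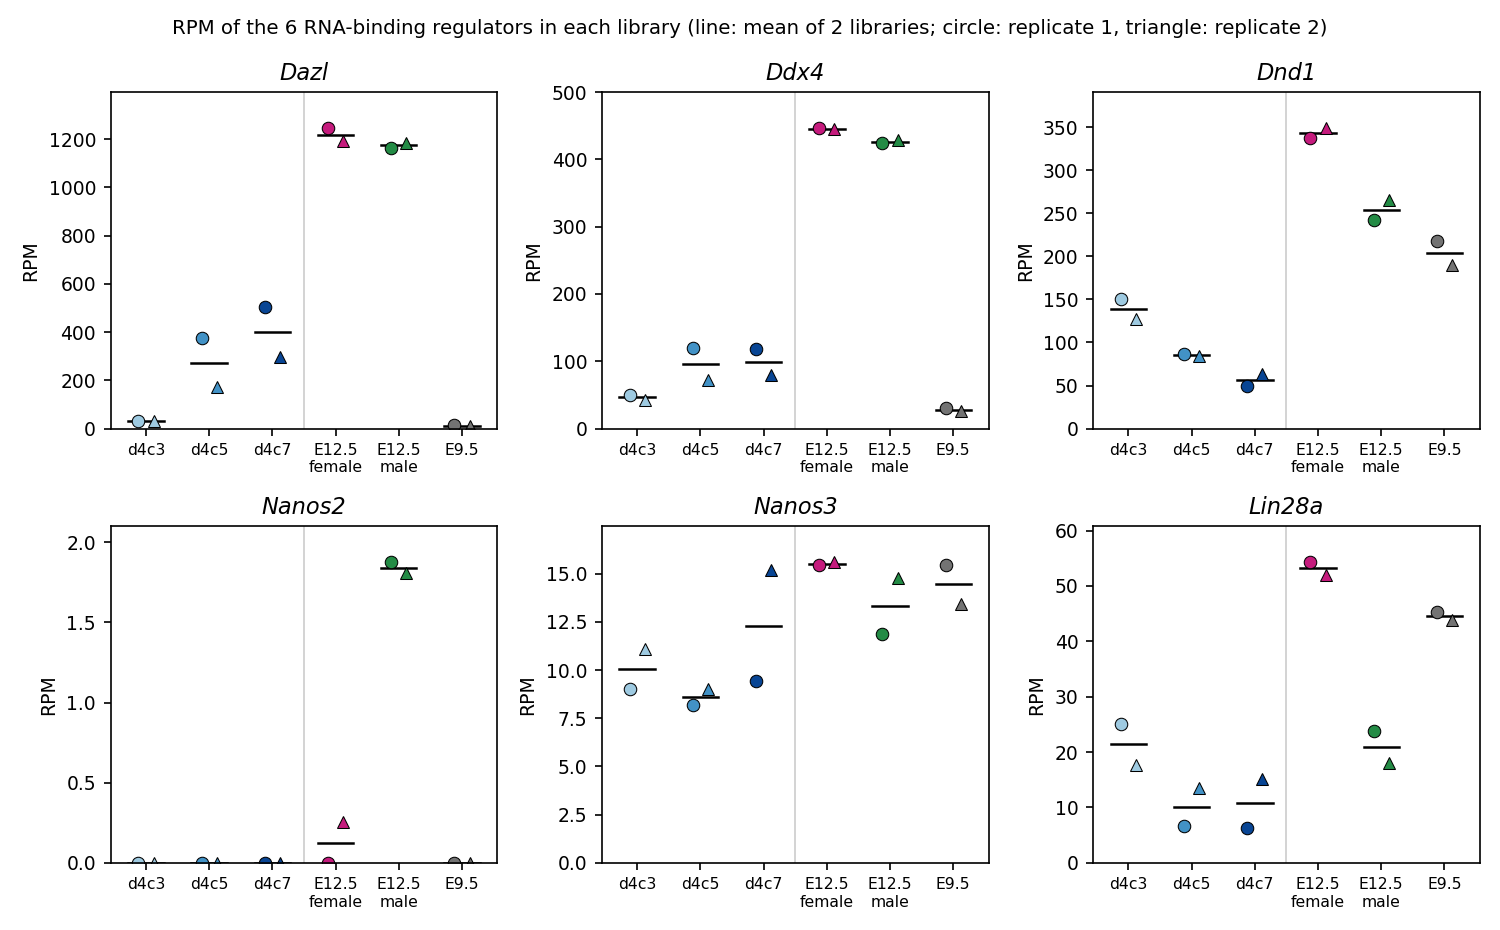
RPM (linear vertical axis from 0, with its own scale per gene) of the 6 genes in each of the 12 libraries, by group on the horizontal axis. Circles are replicate 1, triangles replicate 2 and bars the mean of 2 libraries. Dazl and Ddx4 are highest in both E12.5 groups, Dnd1 is lowest in d4c7, and Nanos2 is above 0 in 3 libraries.

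The second question was how the genes differed between gonadal germ cells of E12.5 and migrating PGCs of E9.5. Dazl and Ddx4 were far higher at E12.5 in both sexes, Dnd1 was higher in females, and Lin28a was lower in males. Of the 5 tested regulators, 3 were called in females, against 37.5% of all tested genes, and 3 in males, against 37.7%. With such shares over all genes, the count of called regulators is no result about them, and the sizes of the changes are given instead. Both comparisons use the same E9.5 libraries.

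Dazl was at 1245 and 1191 RPM in E12.5 females and at 1163 and 1185 RPM in E12.5 males, against 12.9 and 9.44 RPM at E9.5. The 4 E12.5 libraries lay close together and far above the E9.5 libraries. Dazl thus changed by 6.66 ± 0.29 on the log2 scale in females (SE; limma adjusted p = 4.88e-09) and 6.61 ± 0.29 in males (limma adjusted p = 2.76e-09). Ddx4 was at 446.6 and 445.1 RPM in E12.5 females and at 424 and 429 RPM in E12.5 males, against 29.9 and 26.6 RPM at E9.5. Its log2 change was 3.93 ± 0.21 in females (SE; limma adjusted p = 3.36e-08) and 3.87 ± 0.21 in males (limma adjusted p = 2.22e-08). All of these calls held under every alternative and with each library left out.

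Dnd1 was at 337 and 349 RPM in E12.5 females and at 242 and 265 RPM in E12.5 males, against 218 and 190.4 RPM at E9.5. The 3 groups did not overlap. The log2 change of Dnd1 was 0.75 ± 0.14 in females (SE; limma adjusted p = 0.000762), held under every alternative, and was 0.31 ± 0.14 in males and not called (limma adjusted p = 0.0832), but was called with only the compared groups (0.00808). The antisense gene Wdr55 went the other way in RPM, with 45.2 and 36.7 RPM in E12.5 females and 48.1 and 45.2 RPM in E12.5 males, against 66.5 and 73.8 RPM at E9.5.

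Lin28a was at 54.3 and 52.1 RPM in E12.5 females and at 23.8 and 18.1 RPM in E12.5 males, against 45.2 and 43.9 RPM at E9.5. Females and E9.5 lay above both male libraries. The log2 change of Lin28a was 0.25 ± 0.36 in females (SE; limma adjusted p = 0.615) and -1.07 ± 0.36 in males (limma adjusted p = 0.0309). The male call was lost with each of the 4 libraries left out in turn (adjusted p 0.0611 to 0.180) and without the filter on low values (0.0929).

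Nanos3 was at 15.5 and 15.6 RPM in E12.5 females and at 11.9 and 14.8 RPM in E12.5 males, against 15.4 and 13.4 RPM at E9.5. The male and E9.5 ranges overlapped, and both female libraries lay narrowly above them. Neither change was called (log2 0.10 and -0.11; limma adjusted p = 0.806 and 0.783). Blood markers summed to at most 19.0 RPM at E12.5, against 4047 and 4580 RPM at E9.5, and their part in the changes was not tested.

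Between the sexes at E12.5, 1 of the 5 tested regulators was called, against 11.9% of all tested genes. This was Lin28a, with a log2 difference between female and male germ cells of 1.32 ± 0.36 (SE; limma adjusted p = 0.0287). The call was lost with each of the 4 libraries left out (adjusted p 0.0811 to 0.193) and without the filter on low values (0.107). Dnd1 was higher in females by 0.44 ± 0.14 and missed the threshold narrowly (limma adjusted p = 0.0507); it passed with a pseudocount of 5 (0.0444), median ratio scaling (0.0337), the replicate block (0.0314) and only the compared groups (0.0170). Dazl and Ddx4 differed by 0.05 and 0.06, with 95% intervals from -0.56 to 0.67 and from -0.39 to 0.52, and neither was called.

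Nanos2, which acts in fetal male germ cells, lies on chromosome 7 (plus strand, 18987524 to 18988962), where the antisense gene Gm45058 overlaps it. Without a known strand of counting, its few reads cannot be assigned to Nanos2 alone. It had 0 and 0.251 RPM in E12.5 females and 1.88 and 1.81 RPM in E12.5 males. It was at 0 in the 8 libraries of the other 4 groups. In reads estimated from the deposited steps these were 1 read in females and 12 reads in males, or 6 in each male library. From these reads, pooled over the 2 libraries of a group and scaled by depth, the male level was 13.4 times the female level. Its 95% interval, from 1.98 to 572, covers counting error only. At these depths a level of up to 1.36 RPM in a library at 0 was not detectable, and no test was made because Nanos2 did not pass the filter.

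The third question was how far cultured PGCLCs approached the embryonic levels. At d4c3, set against E9.5 PGCs, 4 of the 5 tested regulators were called, where 23.7% of tested genes were called. Dazl and Ddx4 were higher in d4c3, by 1.44 ± 0.29 and 0.70 ± 0.21 on the log2 scale (SE; limma adjusted p = 0.00234 and 0.0273). Dnd1 and Lin28a were lower in d4c3, by -0.55 ± 0.14 and -1.04 ± 0.36 (limma adjusted p = 0.00891 and 0.0491). The calls of Ddx4 and Lin28a were lost with each of the 4 libraries left out and without the filter on low values (adjusted p = 0.0898 and 0.127). That of Ddx4 was also lost with median ratio scaling (0.0589), and that of Lin28a with a pseudocount of 0.5 (0.0559). The call of Dnd1 without d4c3 replicate 2 (adjusted p = 0.0915) or E9.5 replicate 1 (0.111), and the call of Dazl without E9.5 replicate 2 (0.0503).

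At d4c7 the distance from E9.5 was larger for each of these 4 genes. All 4 were called, where 31.9% of tested genes were. The log2 difference from E9.5 was 5.01 for Dazl, 1.74 for Ddx4, -1.85 for Dnd1 and -2.07 for Lin28a (limma adjusted p at most 0.000572). These calls held under every alternative and with each library left out.

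The d4c7 cells were below E12.5 germ cells of both sexes in these genes. Dnd1 and Lin28a were also below E9.5, as given above, and mean Lin28a in d4c3 had been near that of E12.5 males (21.4 against 20.9 RPM). The mean of Dazl in d4c7, 400.3 ± 147 RPM (SD, n = 2), was 32.9% of the mean in E12.5 females, 1218 ± 38.2 RPM, and 34.1% of the mean in E12.5 males, 1174 ± 15.4 RPM. For Ddx4 the d4c7 mean was 22.1% of the female and 23.1% of the male mean, and for Dnd1 it was 16.3% and 22.1%. Lin28a in d4c7 was at 20.2% of the female and 51.3% of the male mean. Nanos3 was at 79.2% and 92.3%.

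Against E12.5 females, Dazl, Ddx4, Dnd1 and Lin28a were lower in d4c7 by log2 differences of -1.65, -2.20, -2.61 and -2.32, and all 4 were called (limma adjusted p at most 0.000573), where 38.9% of tested genes were. Against E12.5 males they were lower by -1.60, -2.13, -2.17 and -1.002, and all 4 were called (limma adjusted p at most 0.0423), where 36.6% were. The call of Lin28a against males was lost without d4c7 replicate 1 (adjusted p = 0.381), E12.5 male replicate 1 (0.215) or E12.5 male replicate 2 (0.0782), without the filter on low values (0.125) and with only the compared groups (0.139). Nanos3 was not called in either comparison, with 95% intervals from -0.95 to 0.26 against females and from -0.74 to 0.47 against males.

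The change over culture was set against the change over development in 1 model. Dazl rose in both, and its change in culture was smaller, with a log2 difference of -3.10 ± 0.41 from the female change (limma adjusted p = 0.000372) and of -3.04 ± 0.41 from the male change (limma adjusted p = 0.000344). Ddx4 also rose less in culture, with differences of -2.90 ± 0.30 from the female and -2.83 ± 0.30 from the male change (limma adjusted p = 5.53e-05 and 5.60e-05). Dnd1 fell in culture and rose in female development, with a difference of -2.05 ± 0.19 (limma adjusted p = 2.24e-05), and the difference from the male change was -1.62 ± 0.19 (limma adjusted p = 0.000147). Each comparison called 3 of the 5 tested regulators, where 17.6% of all tested genes were called for females and 16.9% for males. The starting points also differed, since Dazl and Ddx4 were already higher in d4c3 than at E9.5.

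**Figure D3:**
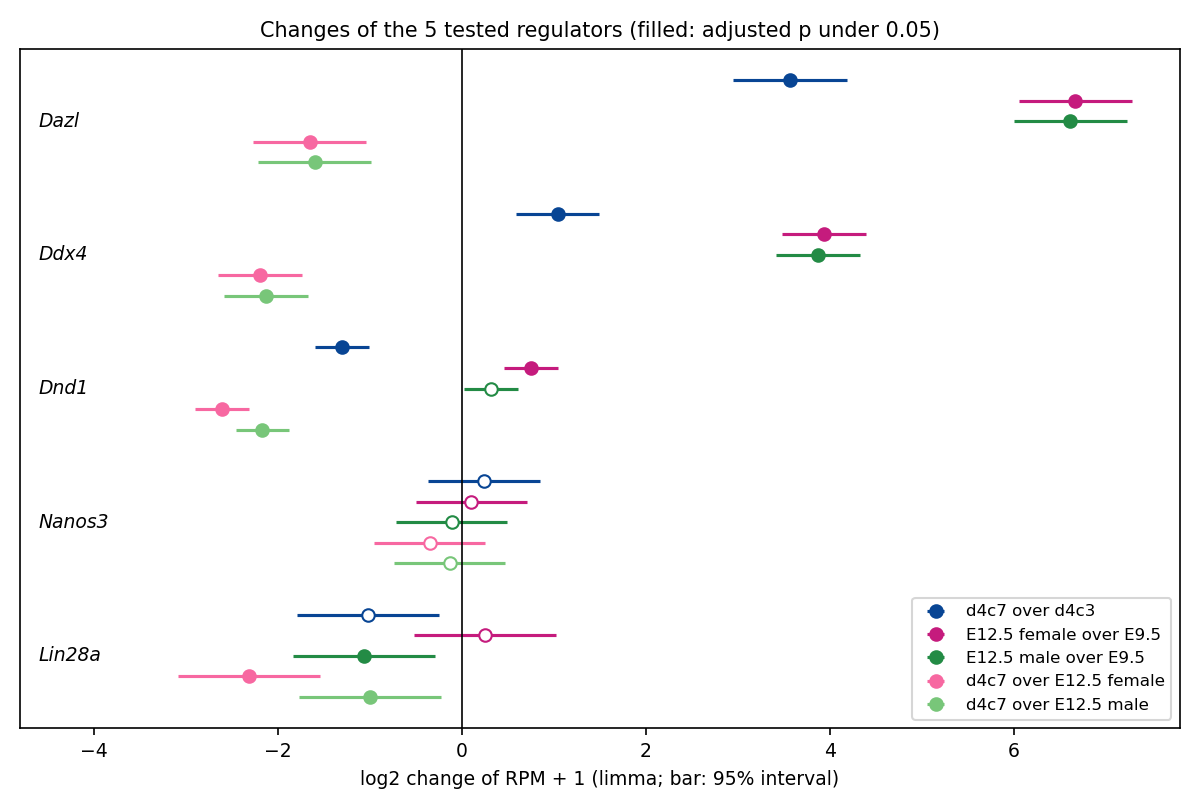
Log2 changes of RPM + 1 from limma (horizontal axis) for the 5 tested genes, with 95% intervals as bars. Filled circles have an adjusted p under 0.05. Dazl and Ddx4 lie right of 0 for culture and development and left of 0 for d4c7 against E12.5, Dnd1 lies left of 0 for culture, and the intervals of Nanos3 cross 0 throughout.

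Ordered by group means, Dazl and Ddx4 had the same sequence, from E12.5 females over E12.5 males, d4c7, d4c5 and d4c3 down to E9.5. The ranges of d4c7 and d4c5 overlapped for both genes and were not called apart. The sexes of E12.5 were not called apart either, although both female libraries lay above both male libraries for each gene. Every other neighbouring pair was called apart for Dazl, and all but d4c5 and d4c3 for Ddx4. Dnd1 ran from E12.5 females over E12.5 males, E9.5, d4c3 and d4c5 to d4c7; of its neighbouring pairs, E9.5 and d4c3 were called apart. Lin28a ran from E12.5 females over E9.5, d4c3, E12.5 males and d4c7 to d4c5, and E9.5 and d4c3 were called apart, as were E12.5 males and d4c7 with the losses given above. Nanos3 ran from E12.5 females over E9.5, E12.5 males, d4c7 and d4c3 to d4c5, with no neighbouring pair called; of all 15 pairs of groups, d4c5 against E12.5 females alone was called (log2 -0.78; limma adjusted p = 0.0388), a comparison that called 40.4% of tested genes.

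Over the 12 libraries, Dazl and Ddx4 went together with r = 0.945 and rho = 0.993. Dnd1 and Lin28a had r = 0.841 and rho = 0.853, Nanos3 and Lin28a r = 0.722 and rho = 0.713, and Dazl and Dnd1 r = 0.137 and rho = 0.441. These values describe 6 groups of paired libraries that share strain, sort and input within culture and within embryo, so the libraries are not independent points. Among 4132 genes with a group mean of at least 50 RPM, the 3 most like each regulator were listed by r of log2(RPM + 1). For Dazl they were Hormad1, a meiotic chromosome axis protein (r = 0.986), Macf1, a cytoskeletal crosslinker (0.979), and Mrps24, a mitochondrial ribosomal protein (0.969). For Ddx4 they were Stk31, a germ cell protein with a Tudor domain (0.990), Mael, a piRNA pathway protein (0.986), and Tsn, the RNA-binding protein translin (0.981).

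Hormad1 was at 8.21 and 9.32 RPM in d4c3, 40.3 and 24.2 RPM in d4c5, and 69.1 and 48.0 RPM in d4c7. In the embryo it had 108 and 91.7 RPM in E12.5 females and 74.1 and 64.6 RPM in E12.5 males, against 3.68 and 4.72 RPM at E9.5. Like Dazl, it was lowest at E9.5 and low in d4c3, and its d4c7 range overlapped the male range. Mael stayed low in culture, at 31.4 and 16.7 RPM in d4c7, and reached 199 and 178 RPM in E12.5 females and 145 and 154 RPM in E12.5 males.

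The genes most like Dnd1 were Prr12 (r = 0.967), Taf9, a subunit of the general transcription factor TFIID (0.966), and Parp1, a DNA damage response enzyme (0.966). Nanos3 was most like the ribosomal protein genes Rpsa (0.936) and Rpl14 (0.922) and the ATPase gene Vcp (0.915). Lin28a was most like Grsf1, an RNA-binding protein of mitochondria (0.956), Sipa1l1 (0.935) and the kinase gene Mapk3 (0.933). Parp1 moved over a narrow range, from 495.9 RPM in d4c7 to 897 RPM in E12.5 females, so a high r does not mean a change of equal size.

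The partners and targets of these proteins were described with 4 lists drawn from general knowledge of the pathways. The lists too were chosen with earlier results of these data known, so their shares of called genes are no independent evidence. The list of CCR4-NOT deadenylase, decapping and decay factors, the machinery that Dnd1 and Nanos proteins recruit, had 31 of 32 genes tested. Between d4c7 and d4c3 none was higher and 1 lower, with a median log2 change of -0.02 against 0.02 over all tested genes, of which 1.67% were higher and 1.08% lower. That gene was Dcp2, the decapping enzyme, at 83.2 and 91.7 RPM in d4c7, against 144 and 124 RPM in d4c3 (log2 -0.61 ± 0.13; limma adjusted p = 0.0212). Its call was lost when d4c3 replicate 1 (adjusted p = 0.211) or d4c7 replicate 1 (0.0645) was left out, and with only the compared groups (0.341).

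At E12.5 against E9.5 the decay list had 8 genes higher and 4 lower in females, with a median of 0.27 against 0.04 over all tested genes, and 12 higher and 4 lower in males, with a median of 0.37 against 0.05. Of all tested genes, 20.4% were higher and 17.1% lower in females, and 20% higher and 17.6% lower in males. Eif4enif1, which carries eIF4E and represses translation in processing bodies, was at 164 and 157 RPM in E12.5 females and 156.3 and 155.7 RPM in E12.5 males, against 86.0 and 75.5 RPM at E9.5. Its log2 change was 0.99 ± 0.12 in females and 0.94 ± 0.12 in males (limma adjusted p = 3.54e-05 and 4.17e-05). Dcp2 and the catalytic deadenylase Cnot6 were lower in both sexes, Dcp2 by -0.72 ± 0.13 and -0.97 ± 0.13 and Cnot6 by -0.57 ± 0.14 and -0.89 ± 0.14 in females and males (limma adjusted p at most 0.00707). The female call of Cnot6 was lost in 1 of 4 leave-one-out fits (adjusted p = 0.0558). Between the sexes the decay list had 0 genes higher and 1 lower in females, where 6.68% of all tested genes were higher and 5.27% lower. This was Btg2, an antiproliferative cofactor of the deadenylase, whose call was lost with each library left out and with only the compared groups (adjusted p = 0.0564).

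The Lin28 and let-7 list had 23 of 24 genes tested. The median change between d4c7 and d4c3 was -0.08 against 0.02 over all tested genes, of which 1.67% were higher and 1.08% lower. In the list none was higher and 1 lower. That gene was Lin28b, the paralogue of Lin28a, named after its values were seen because it lies under the mean of 20 RPM that the naming rule asks for. Lin28b was at 16.0 and 13.3 RPM in d4c3, 9.74 and 13.1 RPM in d4c5, and 5.10 and 5.17 RPM in d4c7. The log2 change of Lin28b between d4c7 and d4c3 was -1.35 ± 0.24 (SE; limma adjusted p = 0.0105), lost without d4c3 replicate 1 (adjusted p = 0.121) and with only the compared groups (0.301). The RPM of both Lin28 paralogues were thus lower at d4c7 in every library, with the test passed by Lin28b alone.

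In development the Lin28 and let-7 list had 6 genes higher and 3 lower in females (median 0.09 against 0.04) and 7 higher and 5 lower in males (median 0.18 against 0.05). These counts stand against the 20.4% higher and 17.1% lower of all tested genes in females, and 20% and 17.6% in males. Hmga2, a chromatin protein and a known let-7 target, was at 9.40 and 9.56 RPM in E12.5 females and 9.38 and 5.12 RPM in E12.5 males, against 90.8 and 106 RPM at E9.5. Its log2 change was -3.24 ± 0.35 and -3.63 ± 0.35 (limma adjusted p = 1.62e-05 and 4.65e-06). In culture Hmga2 was low already at d4c3, with 9.39 and 4.44 RPM. Trim71, the Lin-41 homologue and another let-7 target, was higher at E12.5, at 107 and 112 RPM in females and 102 and 93.2 RPM in males, against 55.4 and 61.3 RPM at E9.5 (log2 0.90 ± 0.13 and 0.73 ± 0.13; limma adjusted p = 0.000138 and 0.000594). These 2 targets thus moved in opposite directions; calls of both held with each library left out. Hmga2 is also expressed outside germ cells, and blood markers at E9.5 were high in the same libraries; their part was not tested.

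The list of other RNA-binding proteins had 41 of 47 genes tested. Their median change between d4c7 and d4c3 was 0.01 against 0.02 over all tested genes, of which 1.67% were higher and 1.08% lower. In the list 2 genes were higher and none lower. They were Rbm44, a germ cell protein of intercellular bridges, and Nanos1, the paralogue of Nanos2 and Nanos3, both named after their values were seen. Rbm44 was at 3.13 and 2.22 RPM in d4c3, 19.4 and 11.7 RPM in d4c5, and 12.6 and 13.1 RPM in d4c7 (d4c7 against d4c3, log2 1.92 ± 0.28; limma adjusted p = 0.00290). It was also the 1 gene of this list called between d4c5 and d4c3 (log2 2.14 ± 0.28; limma adjusted p = 0.00745), a call kept in 2 of 4 leave-one-out fits and lost without the filter on low values (0.0651). With only the compared groups both calls of Rbm44 were lost (0.220 for d4c7 and 0.671 for d4c5). Nanos1 was at 0.391 and 0.444 RPM in d4c3, which is 1 read in each library, 2.34 and 2.26 RPM in d4c5, and 7.07 and 3.27 RPM in d4c7 (log2 2.05 ± 0.41; limma adjusted p = 0.0173). In estimated reads these were 37 in d4c7 and 2 in d4c3, a ratio of levels of 10.7 with a 95% counting interval from 2.75 to 91.3. The call of Nanos1 was lost without d4c3 replicate 1 (adjusted p = 0.139), d4c3 replicate 2 (0.0733) or d4c7 replicate 1 (0.0946), without the filter on low values (0.0876) and with only the compared groups (0.262).

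At E12.5 against E9.5, 17 of these 41 genes were higher in each sex, with 5 lower in females and 3 lower in males (medians 0.31 and 0.29 against 0.04 and 0.05). Over all tested genes 20.4% were higher and 17.1% lower in females, and 20% higher and 17.6% lower in males. Cpeb1, which controls polyadenylation and translation of maternal and meiotic mRNAs, was at 92.5 and 100.3 RPM in E12.5 females and 117 and 137 RPM in E12.5 males, against 6.62 and 8.49 RPM at E9.5. The log2 change of Cpeb1 was 3.52 ± 0.23 in females and 3.91 ± 0.23 in males (limma adjusted p = 1.58e-07 and 4.39e-08). In culture Cpeb1 was at 17.2 and 23.1 RPM in d4c3, 30.4 and 31.6 RPM in d4c5, and 23.6 and 37.9 RPM in d4c7. Its change between d4c7 and d4c3, 0.56 ± 0.23, was not called (limma adjusted p = 0.237), and it differed from the female change by -2.95 ± 0.33 and from the male change by -3.34 ± 0.33 (limma adjusted p = 9.19e-05 and 2.89e-05).

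Rbm46, a germ cell regulator of meiotic entry, was at 42.1 and 29.9 RPM in E12.5 females and 37.8 and 40.3 RPM in E12.5 males, against 10.7 and 10.6 RPM at E9.5. Its calls held with each library left out (log2 1.65 ± 0.26 and 1.78 ± 0.26; limma adjusted p = 0.000277 and 0.000138). Ybx1, an abundant mRNA packaging protein, was lower at E12.5, at 487 and 459 RPM in females and 526 and 505 RPM in males, against 944 and 1029 RPM at E9.5 (log2 -1.06 ± 0.22 and -0.93 ± 0.22; limma adjusted p = 0.00219 and 0.00485). The male call of Ybx1 was lost in 1 of 4 leave-one-out fits (adjusted p = 0.0570). Between the sexes 2 of the 41 genes were higher and 3 lower in females, where 11.9% of all tested genes were called, so this count is no result about the list. Fmr1, a translational repressor, was at 313 and 318 RPM in E12.5 females and 168 and 197 RPM in E12.5 males (log2 0.79 ± 0.14; limma adjusted p = 0.00280), and it alone of the 5 kept its call with each library left out.

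The last list held 14 mRNAs that mouse studies report as bound by Dazl protein, of which 13 were tested; Ddx4 is among them. Between d4c7 and d4c3 the median was 0.23 against 0.02 over all tested genes, of which 1.67% were higher and 1.08% lower. In the list 2 were higher and none lower, Ddx4 itself and Sycp3. Sycp3, a protein of the meiotic chromosome axis, was at 8.997 and 3.99 RPM in d4c3, 12.47 and 10.4 RPM in d4c5, and 26.7 and 20.2 RPM in d4c7. The d4c7 libraries lay above every other culture library and above both E12.5 male libraries, at 16.3 and 19.6 RPM. Sycp3 had a log2 change for d4c7 against d4c3 of 1.78 ± 0.38 (SE; limma adjusted p = 0.0246), a call kept in 1 of 4 leave-one-out fits and lost without the filter on low values (0.114) and with only the compared groups (0.327).

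At E12.5 against E9.5, 8 of the 13 were higher and 1 lower in females, with a median of 0.77 against 0.04, and 7 were higher and 1 lower in males, with a median of 1.45 against 0.05. Among all tested genes the higher shares were 20.4% in females and 20% in males, and the lower shares 17.1% and 17.6%. Tex14, an intercellular bridge protein, was at 103 and 124 RPM in E12.5 females and 112 and 120.1 RPM in E12.5 males, against 25 and 25.2 RPM at E9.5 (male log2 2.16 ± 0.20; limma adjusted p = 3.26e-06). Sycp1, a synaptonemal complex protein, was at 24.9 and 24.4 RPM in E12.5 females and 10.0 and 17.8 RPM in E12.5 males, against 1.84 and 1.42 RPM at E9.5 (female log2 3.29 ± 0.36; limma adjusted p = 1.79e-05). Sox2, a pluripotency factor, was the gene lower in both sexes, at 259 and 235 RPM in E12.5 females and 170 and 194 RPM in E12.5 males, against 395 and 375 RPM at E9.5 (log2 -0.64 ± 0.11 and -1.08 ± 0.11; limma adjusted p = 0.000512 and 6.87e-06). Sox2 stayed between 364 and 423 RPM in all 6 cultured libraries, and in d4c7 it was above both sexes of E12.5 by 0.57 ± 0.11 in log2 against females and 1.01 ± 0.11 against males (limma adjusted p = 0.00114 and 1.32e-05).

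All values are mRNA levels, and translation, the step that Dazl acts on, was not measured.

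**Figure D4:**
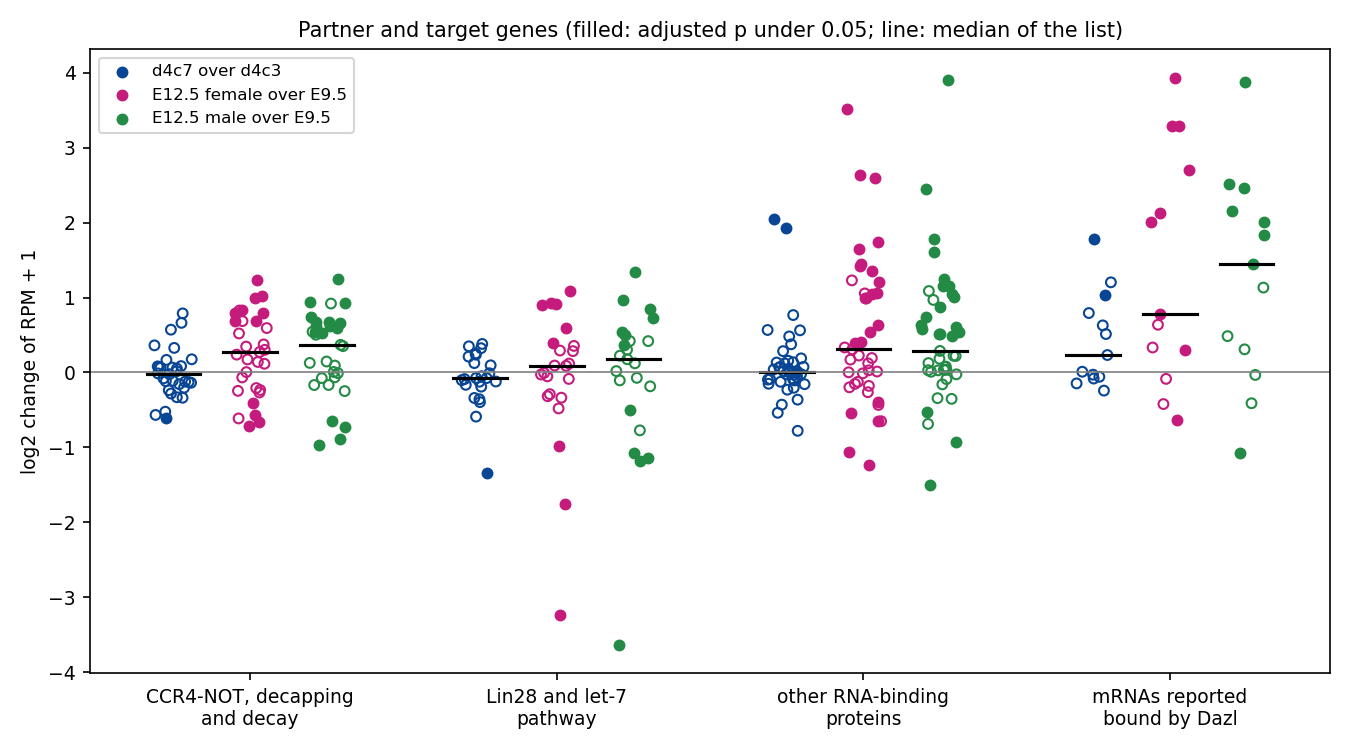
Log2 change of RPM + 1 (vertical axis) of each tested gene in the 4 lists (horizontal axis) for d4c7 over d4c3, E12.5 female over E9.5 and E12.5 male over E9.5. Filled points have an adjusted p under 0.05 and bars are list medians. Few culture points are filled, and the list medians run from -0.08 to 0.23 in culture and from 0.09 to 1.45 in development.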

How the data were processed

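The authors deposited 1 table of RPM values (reads scaled to a fixed library size) for 26218 genes and 92 ERCC spike-ins; all 12 sample columns were used. Per the submitters' processing notes, cutadapt 1.3, TopHat 1.4.1, Cufflinks 2.2.0 and the build mm10 were used, without a role for each; the counting of strand is not given in the sources used here. Depth was estimated by taking the most frequent value above 0 in each library as 1 read. Between 85.0% and 91.3% of values up to 20 reads were whole within 0.1 read, so whole reads were not recovered throughout. No gene was called from counts. For Nanos2 and Nanos1 alone, exact binomial intervals were made from estimated reads, pooled over the libraries of a group.

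The model was limma 3.58.1 in R 4.3.3 on log2(RPM + 1), with a mean per group over all 12 libraries and a mean-variance trend in eBayes. Genes with at least 5 RPM in at least 2 libraries were kept, 10856 in all. The model had 6 residual degrees of freedom. Adjustment of p-values ran over all tested genes (Benjamini-Hochberg), and a gene was called under 0.05. The fit was tested on simulated data with known changes. Group values are means ± SD of 2 libraries, and changes carry the SE or the 95% interval of the model.

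The 6 genes and the 4 lists were chosen with earlier results of these data known. From each list and comparison, up to 3 called genes per direction with a group mean of at least 20 RPM could be named; some are not described. Promoter windows and gene positions came from RefSeq GRCm38.p6, and list genes were matched by NCBI gene identifier, some under older names in the table. A comparison of protein sequences was not made. Alternatives were pseudocounts of 5 and 0.5, no filter on low values, median ratio scaling, a replicate block, only the compared groups in the model, and each library left out in turn.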

Additional observations from a re-analysis of the deposited data

Results flagged for a closer look

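The change over culture (d4c7 against d4c3) differed from the change over development (E12.5 against E9.5) for 3 of the 5 tested regulators, by a limma test of the difference itself over all tested genes. For Dazl, the translational activator, the log2 difference was -3.10 from the female change and -3.04 from the male change. For the helicase Ddx4 it was -2.90 and -2.83, and for Dnd1, the partner of Nanos proteins, it was -2.05 and -1.62. Culture and embryo differ in strain, reporter, sort and RNA input, and these cannot be told apart from the difference. Between the sexes of E12.5, Lin28a differed by a log2 value of 1.32, higher in females. That call was lost without the filter on low values and with a library left out, as given above.

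ERCC spike-in RNAs, which the comparisons do not use, were above the limit of 3 reads in 11 of 12 libraries. Their summed level was 67.6 and 72.7 RPM in d4c3, 64.65 and 59.6 RPM in d4c5, and 64.8 RPM in d4c7 replicate 1, while d4c7 replicate 2 had 0. In the embryonic libraries it was 12107 and 14003 RPM in E12.5 females, 14411 and 16494 RPM in E12.5 males, and 1372 and 628.5 RPM at E9.5. The amount added per library was not used here, so no absolute level of the regulators was derived. Their part in the results was not tested.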

How the results depend on the processing

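All values rest on 2 libraries per group, and calls within culture depended on which groups were in the model. With only the compared groups in the model, limma called 0 genes and 0 regulators for d4c5 against d4c3 (805 genes at an unadjusted p under 0.05), 0 genes for d4c7 against d4c5 (262), and 0 genes and 0 regulators for d4c7 against d4c3 (1084). The same setting gave 2297 genes for d4c7 against E12.5 males, 2456 against E12.5 females, and 1292 genes and 2 regulators between the sexes. Without a filter, 3 genes and 0 regulators were called for d4c5 against d4c3, and 0 genes for d4c7 against d4c5 (1054 at an unadjusted p under 0.05). It also gave 103 genes for d4c7 against d4c3, and 2 regulators for d4c3 against E9.5, where the filtered model called 23.7% of tested genes. Median ratio scaling called 20 genes and 2 regulators for d4c5 against d4c3, and 1306 genes and 2 regulators between the sexes. A pseudocount of 5 called 1351 genes and 2 regulators between the sexes, where the main model called 1297 genes and 1 regulator.

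The labels tie no shared day or animal to a replicate number, and the samples were taken as unpaired. Replicate 1 deviations went together between d4c5 and d4c7 (r = 0.455), less between d4c3 and d4c5 (0.116) or d4c7 (0.131), and were within -0.043 to 0.029 for all other pairs of groups. With the replicate block, 49 genes and 3 regulators were called for d4c5 against d4c3 and 4 genes for d4c7 against d4c5. It also called 549 genes for d4c7 against d4c3, and 1807 genes and 2 regulators between the sexes. The 3 regulators called for d4c5 against d4c3 were Dazl, Ddx4 and Dnd1.

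With each library left out in turn, 2 to 26 genes and 1 to 2 regulators were called for d4c5 against d4c3, 0 to 30 genes for d4c7 against d4c5, and 31 to 786 genes for d4c7 against d4c3. For E12.5 against E9.5, 2456 to 2782 genes were called in females and 2509 to 2842 in males, and between the sexes 538 to 567 genes and 0 regulators. For d4c3 against E9.5 they were 1321 to 1685 genes and 1 to 2 regulators, and for d4c7 2069 to 3997 genes against E9.5, 2807 to 4408 against E12.5 females and 2552 to 4331 against E12.5 males. For the difference of changes 982 to 2444 genes were called for females and 959 to 2418 for males. The cause of these shifts was not tested.

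Directions that turned under a left-out library all belonged to changes that were not called. For d4c7 against d4c5, Lin28a ranged from -0.53 to 0.62 and Ddx4 from -0.31 to 0.41. Nanos3 ranged from -0.077 to 0.56 for d4c7 against d4c3, from -0.26 to 0.032 for E12.5 males and from -0.56 to 0.069 for d4c7, both against E9.5, and from -0.45 to 0.18 for d4c7 against E12.5 males. In the difference of changes, Lin28a ranged from -0.53 to 0.62 for males and Nanos3 from -0.18 to 0.46 for females. Depth limits Nanos2 most, with 13 estimated reads in all.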

Other observations

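Without the filter on low values, Nanos2 entered the limma model: its log2 difference between E12.5 females and males was -1.34 ± 0.12 (SE; adjusted p = 0.00089), and against E9.5 it was 0.16 in females and 1.51 in males (adjusted p = 0.387 and 7.76e-05). With 9 of 12 libraries at 0, the spread behind this test is close to 0 by construction, so it was not used in the report. Dnd1 and Dazl moved in opposite directions in culture, and the ratio of Dnd1 to Dazl RPM was 4.63 and 4.11 in d4c3, 0.229 and 0.495 in d4c5, and 0.0973 and 0.212 in d4c7. In the embryo the ratio was 0.271 and 0.293 in E12.5 females and 0.208 and 0.224 in E12.5 males, against 16.9 and 20.2 at E9.5. RPM of different genes were not calibrated against each other, so the movement of the ratio is described and not its size.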
